A study of Danio rerio with 6 samples.

Results

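Chemokine and interleukin genes, with the genes of their receptors, were followed in spinal cord RNA of adult zebrafish at 1 week post injury (wpi). Genes were chosen by symbol (ccl, cxcl, ccr, cxcr, xcr, ackr, cx3cr and il names followed by a number where the family uses one, without il6st, il11a, il11ra and il17rd) and had to reach 10 reads in at least 3 of the 6 libraries. Of 14781 genes in the count files, 80 had a matching symbol and 57 passed that threshold, 28 of them ligands and 29 receptors. Of these 57 genes, 47 had 10 reads in every library, and 56 entered the comparison of injured with sham cords. The remaining ligand gene, ccl38a.4, had between 5 and 13 reads per library and was not tested.

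The study profiled bulk RNA from 3 sham and 3 injured samples of spinal cord. Fish were adults of both sexes of the Ekkwill strain, and the controls were clutchmates that had a cut through skin and muscle with the cord left intact. Injured fish had a complete transection of the cord and were sampled at 1 wpi, and in both groups the tissue reached 2 mm to either side of the lesion or the matching position. The titles call the control libraries sham, whereas their treatment label reads uninjured. The number of fish in each sample and the time of sampling after the sham operation were not found in the sources used here, so p-values measure the spread between samples. The labels name no transgene or mutation for either group.

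Chemokines are small secreted proteins that direct cell movement through G protein-coupled receptors, and atypical receptors bind them without driving migration. Interleukins are secreted signals between immune cells and tissue cells, and most act through paired receptor chains that start JAK-STAT signaling, whereas the IL-1 and IL-17 families use adaptor proteins. In the central nervous system, microglia and invading leukocytes make and sense many of these signals, and Cxcl12 also guides migrating cells and axons. Zebrafish hold extra copies of many of these genes, and several chemokine groups have no direct mammalian counterpart.

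Libraries held between 19310220 and 30147448 reads in genes. Levels are given as CPM, the reads of a gene per 1000000 reads of the scaled library, with no correction for gene length, so levels were compared between libraries and not between genes. Sham replicate 1 stood apart from the other sham libraries: it lay nearer to the injured mean than to the mean of sham replicates 2 and 3 for 65.2% of all genes tested and for 47 of the 56 genes described here (83.9%). Among the 47 genes with 10 reads in every library, sham replicate 1 did so for 38 (80.9%). Its summed level of listed oocyte genes was 1156 CPM, against 58.5 to 108 CPM in the other 5 libraries, and the summed level of listed skeletal muscle genes ranged from 15869 CPM in sham replicate 3 to 82848 CPM in injured replicate 1. The spinal cord marker list summed to 20021, 29391 and 28907 CPM across sham replicates 1 to 3 and 23660, 24788 and 24900 CPM across injured replicates 1 to 3. Sham replicate 1 was thus the lowest of all 6, and sham replicates 2 and 3 were above every injured library. This sum is no measure of the amount of cord tissue, since its genes went both ways. Of 11 genes, 6 had a log2 fold change above 0 and 5 below, from -1.31 for snap25a to 0.62 for sox2. The level of snap25a was 3678, 6971 and 7515 CPM across sham replicates 1 to 3 and 2418, 2474 and 2426 CPM across injured replicates 1 to 3. Because sham replicate 1 stood apart, results are given with all 6 libraries, and every gene that passed the test without sham replicate 1 is named after them. That library was singled out after its values had been seen to lie nearer to the injured libraries. Leaving it out widens the difference and narrows the sham spread for many genes. P-values and calls without it are therefore description and do not stand as separate tests. In bulk RNA, a change in the number of cells of a type and a change in RNA per cell cannot be told apart.

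Few of the genes passed the test with all 6 libraries, and they went in both directions. The microglial chemokine gene ccl34b.1 and the interleukin-10 receptor gene il10ra rose at 1 wpi, while the chemokine genes ccl44 and cxcl12b and the synaptic receptor gene il1rapl1b fell. In edgeR's quasi-likelihood test at an adjusted p under 0.05, 2 of 56 genes (3.57%) rose, where 5.81% of all 12804 genes tested rose. The 3 genes that fell made up 5.36%, where 4.83% of all genes tested fell. These shares lay near those of all genes. The other 51 tested genes did not pass, although 22 of the 56 (39.3%) had an unadjusted p under 0.05, as did 38.2% of all genes tested.

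The median log2 fold change was 0.27 over the 56 genes, with 33 above 0 and 23 below, and -0.03 over all genes tested, of which 47.3% were above 0. Among the 47 genes with 10 reads in every library, a limit that leaves out genes low in either group, the median was 0.15 and 25 were above 0. For 27 ligands the median was 0.45, with 18 above 0, and for 29 receptors it was 0.06, with 15 above 0. Among genes with 10 reads in every library this order turned, with medians of 0.09 for 20 ligands and 0.21 for 27 receptors. Summed over the ligands, levels were 533, 547 and 529 CPM across sham replicates 1 to 3 and 608, 643 and 582 CPM across injured replicates 1 to 3. The receptors summed to 352, 352 and 310 CPM in the sham libraries and 407, 434 and 411 CPM in the injured libraries. Both sums were higher in each injured library than in any sham library. The ligand gene ccl34b.1 alone measured 191, 149 and 152 CPM in sham and 282, 289 and 250 CPM in injured libraries. Without that gene the ligand sums of the groups overlapped and their mean was lower in the injured libraries, so the higher ligand sum rested on ccl34b.1.

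**Figure D1:**
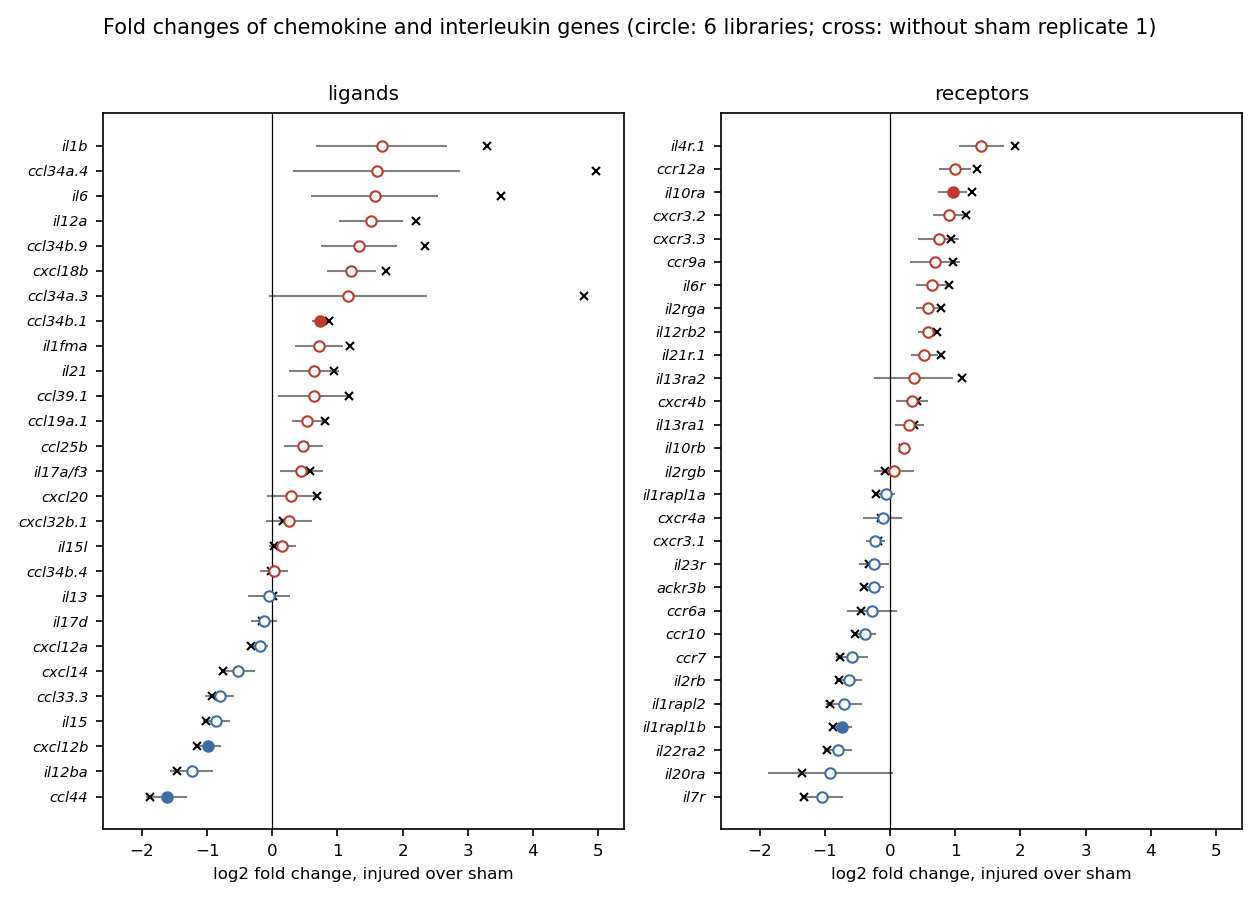
Log2 fold change of injured over sham cords for 27 ligand and 29 receptor genes, ordered by size. Circles with bars show the value from 6 libraries and its standard error, filled where the gene passed edgeR's test, and crosses show the value without sham replicate 1. The 5 filled circles are ccl34b.1, il10ra, cxcl12b, ccl44 and il1rapl1b, and the crosses of ccl34a.3, ccl34a.4, il1b and il6 lie far to the right of their circles.

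Among the ligands, ccl34b.1 rose. It encodes a CC chemokine known in zebrafish as a marker of a microglial population. Its level was 191, 149 and 152 CPM across sham replicates 1 to 3 and 282, 289 and 250 CPM across injured replicates 1 to 3. Every injured library was above every sham library. The log2 fold change was 0.74 (standard error, SE, 0.125, edgeR adjusted p = 0.0346), and without sham replicate 1 it was 0.86.

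The ligand cxcl12b fell while its paralog cxcl12a did not pass the test. Both encode Cxcl12, the ligand of Cxcr4 and of the scavenging receptor Ackr3. The level of cxcl12b was 86.7, 143 and 114 CPM across sham replicates 1 to 3 and 65.7, 55.9 and 51.6 CPM across injured replicates 1 to 3. Each injured library was below each sham library, sham replicate 1 being the lowest of its group. Its log2 fold change was -0.99 (SE 0.197, edgeR adjusted p = 0.0412), or 0.503 times the sham level. The level of cxcl12a was 92.1, 126 and 123 CPM in the sham libraries and 108, 93.2 and 96.3 CPM in the injured libraries, with overlap through sham replicate 1. Its log2 fold change was -0.20 (SE 0.137, edgeR adjusted p = 0.328), and without sham replicate 1 it was -0.32 (adjusted p = 0.0109). Within a library, the log2 ratio of cxcl12b to cxcl12a was -0.09, 0.19 and -0.11 across sham replicates 1 to 3 and -0.72, -0.74 and -0.90 across injured replicates 1 to 3. The mean ratio therefore differed by -0.78 on the log2 scale, with no overlap between groups, and this ratio was chosen after the values had been seen and was not tested. A lack of overlap was not particular to this pair. Most other ratios of related genes that were computed had none either, among them cxcr3.1 to cxcr3.2 (-1.19) and il10rb to il10ra (-0.80). The ratios of il2rgb to il2rga and of il13ra2 to il13ra1 overlapped. No share over pairs of other genes was computed.

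The receptors of Cxcl12 did not pass with all 6 libraries. For cxcr4b the level was 24.9, 27.5 and 15.2 CPM across the sham libraries and 31.1, 31.5 and 22.5 CPM across the injured libraries, a log2 fold change of 0.33 (SE 0.252). The paralog cxcr4a ranged from 1.55 to 3.02 CPM over the 6 libraries, with a log2 fold change of -0.12. The scavenging receptor gene ackr3b measured 12, 17.8 and 15.6 CPM in sham and 12.7, 13.1 and 12.2 CPM in injured libraries, a log2 fold change of -0.26. The groups overlapped for each of these receptor genes, and without sham replicate 1 only ackr3b of the 3 passed (log2 fold change -0.40, edgeR adjusted p = 0.0100). The count files held no gene under the symbol of the related receptor gene ackr3a.

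The chemokine gene ccl44 had the largest fall in log2 fold change among the 56 genes. Its level was 7.11, 13.7 and 14.3 CPM across sham replicates 1 to 3 and 3.82, 3.01 and 4.60 CPM across injured replicates 1 to 3. All injured libraries were below all sham libraries. This gave a log2 fold change of -1.62 (SE 0.315, edgeR adjusted p = 0.0402). In the RefSeq gene table of a different assembly (GRCz12tu), ccl44 and ccl25b lie with 2 protein-coding genes between them. For ccl25b, a gene of the Ccl25 type that in mammals attracts thymocytes through Ccr9, the log2 fold change was 0.48 (SE 0.300), with 2.82, 3.62 and 1.96 CPM in sham and 3.37, 5.02 and 3.28 CPM in injured libraries.

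Other chemokine genes did not pass with all 6 libraries. For cxcl18b, whose product attracts zebrafish neutrophils, the level was 15.8, 6.83 and 6.62 CPM across the sham libraries and 17.9, 24.7 and 24.9 CPM across the injured libraries. No sham library reached an injured library, and the log2 fold change was 1.21 (SE 0.374, edgeR adjusted p = 0.0761), or 1.74 without sham replicate 1 (adjusted p = 0.00052). The levels of ccl19a.1, a gene for a ligand of Ccr7, were 62.9, 33.5 and 44.1 CPM in sham and 61.8, 77.7 and 64.5 CPM in injured libraries, with sham replicate 1 above injured replicate 1. Its log2 fold change was 0.54 (edgeR adjusted p = 0.147), and that of the receptor gene ccr7 was -0.59 (adjusted p = 0.131), at 3.11, 5.29 and 4.41 CPM in sham and 3.19, 2.79 and 2.55 CPM in injured libraries. For cxcl14, a conserved CXC chemokine gene, the log2 fold change was -0.52 and the groups overlapped. Without sham replicate 1, ccl19a.1 rose (log2 fold change 0.81) and ccr7 (-0.77) and cxcl14 (-0.76) fell, with edgeR adjusted p-values of 0.00554, 0.0113 and 0.00197. Of the 10 CC chemokine genes tested, 8 had a log2 fold change above 0, as did 3 of the 6 CXC chemokine genes and 47.3% of all genes tested. The 8 include ccl34a.3, ccl34a.4 and ccl34b.9, which reached 10 reads in all 3 injured libraries and in only 1 sham library. Their presence in that count therefore depended mostly on the injured group. The chemokine genes ccl33.3, ccl34b.4, ccl39.1, cxcl20 and cxcl32b.1 had log2 fold changes from -0.81 to 0.64.

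The cytokine genes il1b, il6, ccl34a.3 and ccl34a.4 had the largest standard errors of the log2 fold change among the 56 genes. Interleukin-1 beta and interleukin-6 are early inflammatory signals, and ccl34a.3 and ccl34a.4 are adjacent chemokine genes in the same RefSeq table. For il1b the level was 16.6, 2.32 and 2.25 CPM across sham replicates 1 to 3 and 5.50, 34.4 and 27.8 CPM across injured replicates 1 to 3. For ccl34a.4 it was 3.36, 0.139 and 0.0832 CPM in sham and 1.3, 5.20 and 4.28 CPM in injured libraries. In both genes sham replicate 1 was above injured replicate 1, and injured replicates 2 and 3 were above all other libraries. The same order held for il6, at 0.692, 0.0929 and 0.0416 CPM in sham and 0.351, 1.34 and 0.728 CPM in injured libraries.

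For ccl34a.3 the level was 2.52, 0.0929 and 0.0416 CPM in sham and 1.86, 2.23 and 1.78 CPM in injured libraries, so that sham replicate 1 was the highest of all 6. Log2 fold changes with 6 libraries were 1.68 for il1b (SE 1.01), 1.57 for il6 (SE 0.974), 1.60 for ccl34a.4 (SE 1.28) and 1.16 for ccl34a.3 (SE 1.21). Their adjusted p-values from edgeR's quasi-likelihood test were 0.260, 0.274, 0.386 and 0.500, and these genes did not pass. Without sham replicate 1 the log2 fold changes of il1b, il6, ccl34a.4 and ccl34a.3 were 3.3, 3.51, 4.96 and 4.79, and il1b passed (edgeR adjusted p = 0.0185). In sham replicates 2 and 3 the 2 ccl34a genes and il6 had at most 3 reads, so their fitted values rest on few reads, and without sham replicate 1 they reached 10 reads in injured libraries alone, so no p is given for them. Of 22 tested genes listed for microglia and macrophages, 5 were higher in sham replicate 1 than in injured replicate 1, grn1 (50.2 against 10.9 CPM) and mfap4 (39.0 against 24.6 CPM) among them. The other 17, such as mpeg1.1 (139 against 191 CPM), were lower in sham replicate 1. Of 13 tested genes listed for neutrophils, 11 were higher in sham replicate 1 than in injured replicate 1 and 2 were lower. The part of these cells in the values of il1b, il6 and the ccl34a genes was not tested.

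**Figure D2:**
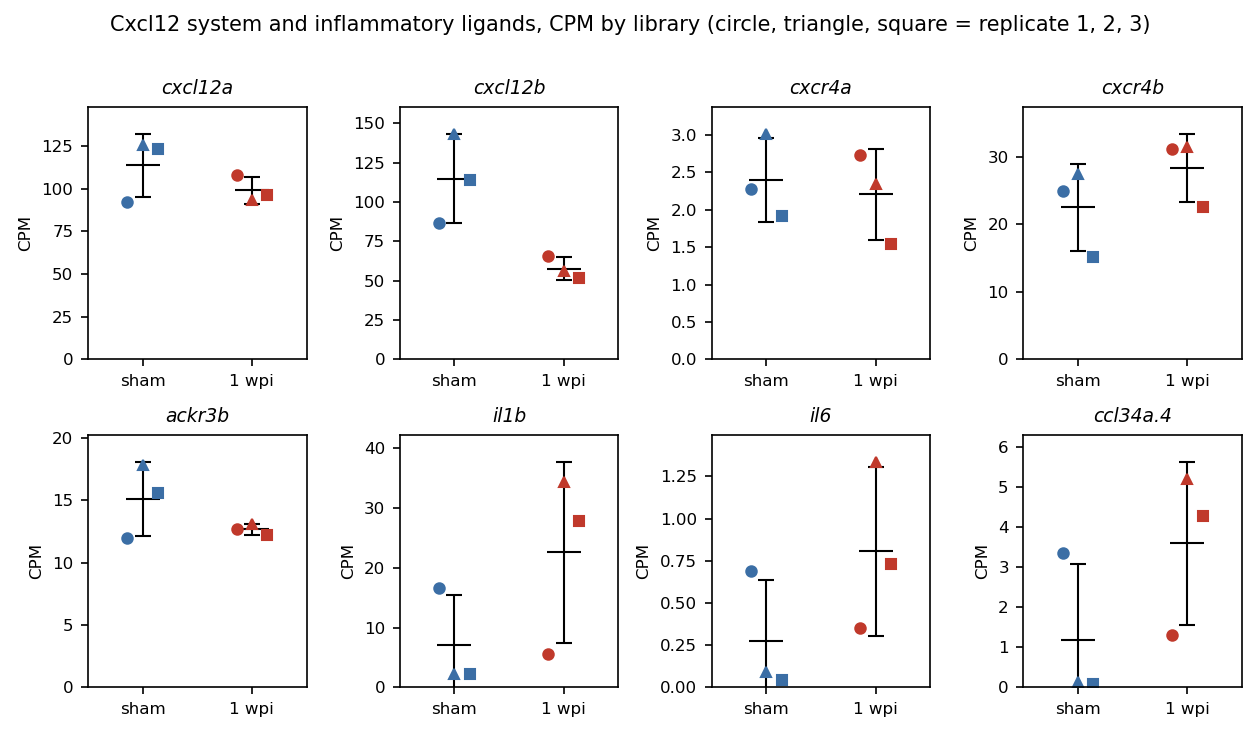
Level in CPM in each library for the Cxcl12 system and 3 inflammatory ligand genes, in sham (blue) and 1 wpi (red) cords, with the mean (line) and SD (bars, n = 3), each panel with its own axis from 0. The cxcl12b panel has no overlap between groups, and in the il1b, il6 and ccl34a.4 panels sham replicate 1 (circle) lies above injured replicate 1 (circle).

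The 2 subunit genes of interleukin-12 went opposite ways without passing the test. For il12a, which encodes the smaller subunit, the level was 0.840, 0.372 and 0.208 CPM in sham and 1.37, 1.34 and 1.32 CPM in injured libraries. For il12ba, a gene of the larger subunit, it was 1.58, 2.88 and 2.75 CPM in sham and 0.841, 1.34 and 0.865 CPM in injured libraries. Neither gene's groups overlapped, as was so for 44.7% of all genes tested. Among sham libraries il12a reached 10 reads in replicate 1 alone. Its presence here therefore depended mostly on the injured group, and its direction and lack of overlap followed largely from the read threshold. The log2 fold changes were 1.51 for il12a (SE 0.489) and -1.24 for il12ba (SE 0.336), with adjusted p-values of 0.0828 and 0.0613 from edgeR's quasi-likelihood test. Without sham replicate 1, il12ba fell (log2 fold change -1.46, edgeR adjusted p = 0.00568), and il12a, with 10 reads in injured libraries alone, had a log2 fold change of 2.21.

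The interleukin-15 gene il15, a growth factor gene for natural killer and T cells in mammals, measured 5.09, 7.29 and 7.78 CPM in sham and 3.75, 3.98 and 3.37 CPM in injured libraries. Each injured library was below each sham library, and the log2 fold change was -0.86 (SE 0.205, edgeR adjusted p = 0.0503), just short of the threshold. Its relative il15l had overlapping groups and a log2 fold change of 0.15. Of the other interleukin genes, il1fma, il21, il17a/f3, il13 and il17d ranged from -0.13 for il17d to 0.71 for il1fma, and none passed. The log2 fold change of il13 was -0.05, at 0.546 to 0.982 CPM.

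Among the receptors, il10ra rose and il4r.1 had the largest log2 fold change. The gene il10ra encodes the chain that binds interleukin-10, a signal known for damping inflammation. Its level was 14.8, 9.52 and 8.24 CPM across sham replicates 1 to 3 and 20.9, 22.1 and 20.3 CPM across injured replicates 1 to 3. All injured libraries were above all sham libraries. This gave a log2 fold change of 0.96 (SE 0.226, edgeR adjusted p = 0.0494). With RLE scaling the adjusted p was 0.0502, so the call of il10ra sat at the threshold. The partner chain gene il10rb, shared with other receptors of the family, measured 49.9, 50.3 and 51.0 CPM in sham and 56.5, 58.6 and 59.4 CPM in injured libraries, a log2 fold change of 0.21 (SE 0.0592, edgeR adjusted p = 0.0678). The ligand gene il10 had at most 12 reads in any library and did not reach the threshold on reads.

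For il4r.1, a gene for the receptor chain shared by interleukin-4 and interleukin-13, the level was 17.2, 7.99 and 6.99 CPM across the sham libraries and 27.8, 28.2 and 28.6 CPM across the injured libraries. The injured libraries lay within 1 CPM of each other and above all sham libraries, among which sham replicate 1 was the highest. The log2 fold change was 1.40 (SE 0.347, edgeR adjusted p = 0.0532), and without sham replicate 1 it was 1.91 (adjusted p = 6.42e-05). The partner chain gene il13ra1 had overlapping groups and a log2 fold change of 0.29, and the decoy receptor gene il13ra2 measured 5.83, 1.49 and 2.33 CPM in sham and 2.00, 4.64 and 5.78 CPM in injured libraries. The ligand gene il4 had at most 5 reads per library.

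**Figure D3:**
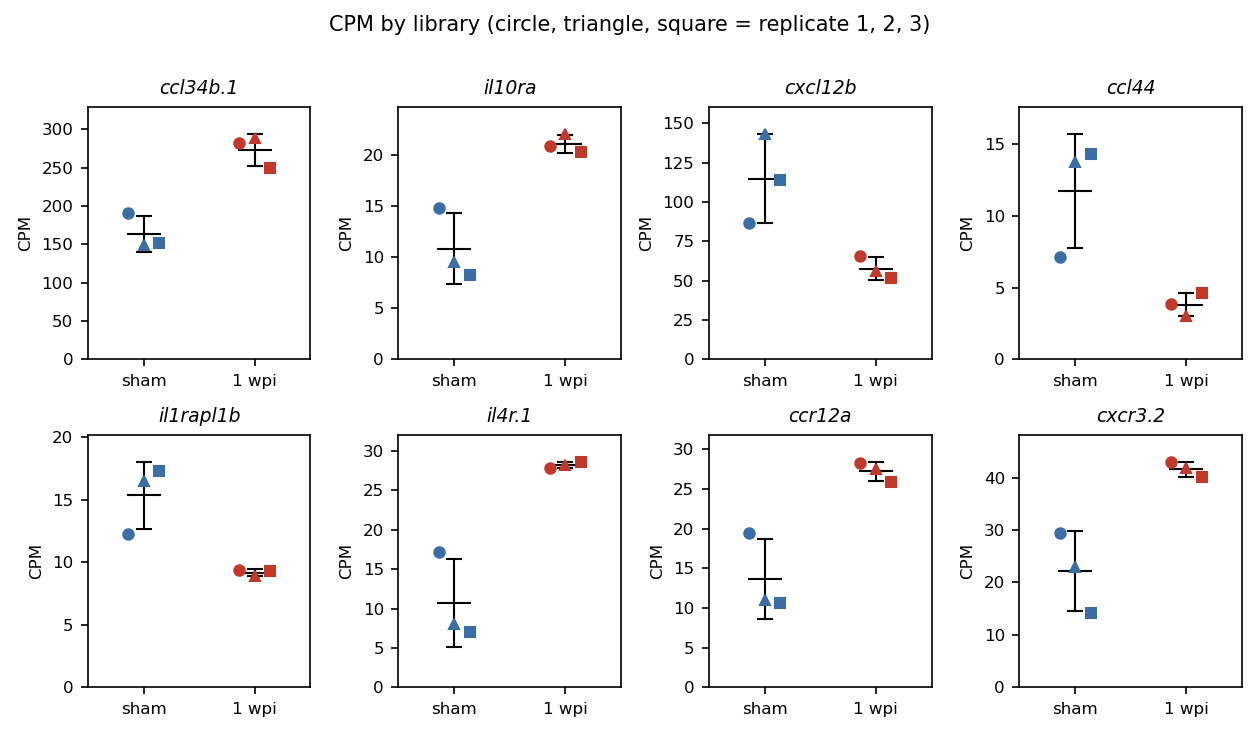
Level in CPM in each library for the 5 genes that passed edgeR's test and for il4r.1, ccr12a and cxcr3.2, which did not, in sham (blue) and 1 wpi (red) cords, with the mean (line) and SD (bars, n = 3), each panel with its own axis from 0. No panel has overlap between the groups, and in each the sham library nearest to the injured libraries is replicate 1 (circle).

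Receptor genes of the common gamma chain system split by direction without passing the test. The shared chain gene il2rga measured 13.8, 10.2 and 9.16 CPM in sham and 14.9, 17.7 and 16.9 CPM in injured libraries, and its log2 fold change was 0.58 (SE 0.177, edgeR adjusted p = 0.0749). The interleukin-7 receptor gene il7r, used by developing and resting T cells, measured 4.25, 9.75 and 8.20 CPM in sham and 4.10, 3.31 and 3.32 CPM in injured libraries. Its injured libraries were all below the sham libraries, narrowly for sham replicate 1, and the log2 fold change was -1.05 (SE 0.322, edgeR adjusted p = 0.0755). For il2rb, a chain of the receptors for interleukin-2 and interleukin-15, the log2 fold change was -0.63 (SE 0.201, edgeR adjusted p = 0.0798). The interleukin-21 receptor gene il21r.1 had a log2 fold change of 0.52, and il2rgb, the second gamma chain gene, had 0.06 at under 1 CPM in every library.

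Of the other interleukin receptor genes, il12rb2 had a log2 fold change of 0.58 (SE 0.149, edgeR adjusted p = 0.0565), and il23r, adjacent to it in the RefSeq table, had -0.25. The gene il6r, for the interleukin-6 receptor, measured 8.35, 5.29 and 5.16 CPM in sham and 8.41, 11.7 and 9.20 CPM in injured libraries, a log2 fold change of 0.64. The gene il22ra2, which in mammals encodes a soluble protein that binds interleukin-22, measured 5.58, 7.34 and 9.36 CPM in sham and 4.38, 4.24 and 4.19 CPM in injured libraries. Its groups did not overlap, and the log2 fold change was -0.80 (SE 0.212, edgeR adjusted p = 0.0595). For il20ra the log2 fold change was -0.92 with a standard error of 0.959.

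The interleukin-1 receptor accessory-like genes encode neuronal proteins that organize synapses. Of the 3, only il1rapl1b fell with all 6 libraries. Without sham replicate 1 all 3 were called lower, as were 28.2% of all genes tested, and these calls are description. The level of il1rapl1b was 12.3, 16.5 and 17.3 CPM across sham replicates 1 to 3 and 9.36, 8.88 and 9.29 CPM across injured replicates 1 to 3, with no overlap. Its log2 fold change was -0.74 (SE 0.152, edgeR adjusted p = 0.0424). Its paralog il1rapl1a measured 46.4, 66.7 and 63.8 CPM in sham and 55.3, 56.1 and 57.1 CPM in injured libraries, a log2 fold change of -0.07 with overlap. The third gene, il1rapl2, had overlapping groups and a log2 fold change of -0.71 (SE 0.274, edgeR adjusted p = 0.117). Without sham replicate 1 the log2 fold change was -0.22 for il1rapl1a (edgeR adjusted p = 0.0104) and -0.92 for il1rapl2 (adjusted p = 0.0058).

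None of the 10 G protein-coupled chemokine receptor genes passed with all 6 libraries. For ccr12a, a CC receptor gene, the level was 19.5, 11.0 and 10.6 CPM across the sham libraries and 28.3, 27.5 and 25.9 CPM across the injured libraries. The injured libraries were all higher, and the log2 fold change was 0.99 (SE 0.249, edgeR adjusted p = 0.0538). The 3 cxcr3 genes, neighbours in the RefSeq table, differed: cxcr3.2, whose product guides zebrafish macrophages, measured 29.4, 22.9 and 14.3 CPM in sham and 43.0, 41.7 and 40.1 CPM in injured libraries, a log2 fold change of 0.91 (SE 0.252, edgeR adjusted p = 0.0635). The log2 fold change was 0.75 for cxcr3.3, whose product acts as a scavenger of the same ligands in zebrafish, and -0.23 for cxcr3.1. Their ligand gene cxcl11.8 had 35 reads in injured replicate 3 and at most 7 in the other libraries and did not reach the threshold on reads. For ccr9a, a receptor gene for Ccl25, the log2 fold change was 0.69, with 6.74 to 18.3 CPM in sham and 18.0 to 28.0 CPM in injured libraries. The genes ccr6a and ccr10 had log2 fold changes of -0.28 and -0.39.

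Injured libraries all lay above sham libraries for 13 of the 56 genes (23.2%), 4 ligands and 9 receptors, where 22.9% of all genes tested did so. They all lay below for 10 genes (17.9%), 5 ligands and 5 receptors, where 21.8% of all genes tested did so. The groups of the other 33 genes overlapped. The 13 include il12a and ccl34b.9, whose order followed largely from the read threshold. Among the 47 genes with 10 reads in every library, the injured libraries all lay above for 11 (23.4%), 2 of 20 ligands and 9 of 27 receptors. They all lay below for 10 (21.3%). For 24 genes (42.9%, against 37.6% of all genes tested) sham replicates 2 and 3 were both below every injured library. In 11 of these (45.8%, against 39.0% among all genes with that order) sham replicate 1 reached into the injured range. The 24 include il6, il12a, ccl34a.3, ccl34a.4 and ccl34b.9, which reached 10 reads in all 3 injured libraries and, among sham libraries, in replicate 1 alone. Their order thus followed largely from the read threshold. The shares of 42.9% and 45.8% are therefore not read as differences from all genes. For 17 genes (30.4%, against 37.3% of all genes tested) sham replicates 2 and 3 were both above every injured library. In 7 of these (41.2%, against 41.6% among all genes with that order) sham replicate 1 reached into the injured range.

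**Figure D4:**
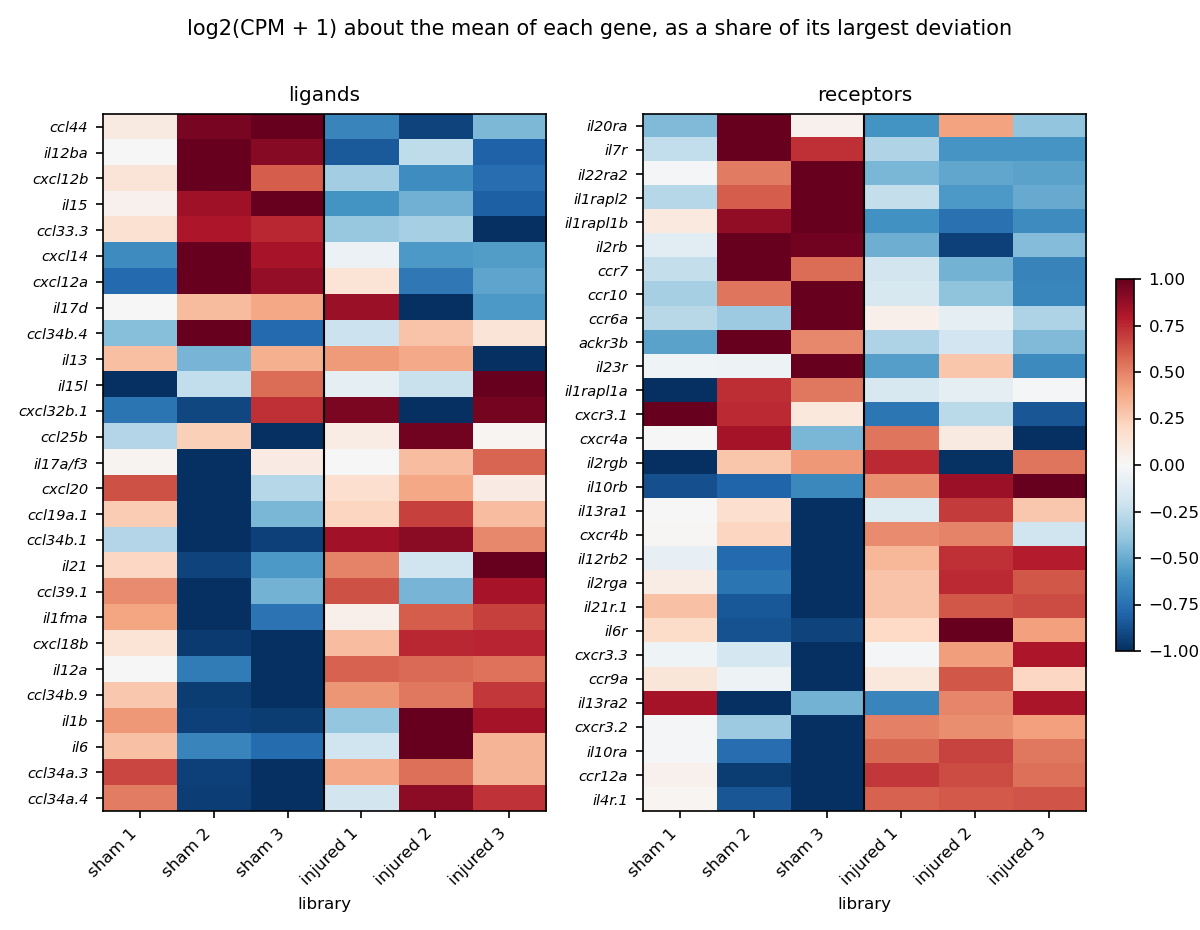
Log2(CPM + 1) about the mean of each gene over 6 libraries, divided by the largest deviation of that gene, for 27 ligands and 29 receptors, ordered within each panel by the fold change without sham replicate 1. The columns of sham replicates 2 and 3 contrast with the injured columns. Sham replicate 1 lay nearer to the injured mean than to the mean of sham replicates 2 and 3 for 47 of the 56 genes (83.9%), and for 65.2% of all genes tested.

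More genes passed when sham replicate 1 was left out, a choice made after its values had been seen, so these calls are description. Then 20 of the 56 genes (35.7%) rose, 10 ligands and 10 receptors, where 29.0% of all genes tested rose in edgeR, and 16 (28.6%) fell, 7 ligands and 9 receptors, where 28.2% of all genes fell. The 5 genes called with all libraries were among them. Of the 20 that rose, the 5 ligands il6, il12a, ccl34a.3, ccl34a.4 and ccl34b.9 then reached 10 reads in injured libraries alone, and among the 47 genes with 10 reads in every library 15 (31.9%) rose and 16 fell. The other ligands that rose besides ccl34b.1 were ccl19a.1, cxcl18b, il1b and il1fma, with log2 fold changes from 0.81 to 3.3. The ligands that fell besides ccl44 and cxcl12b were ccl33.3, cxcl12a, cxcl14, il12ba and il15, from -1.46 to -0.32. The receptors that rose besides il10ra were ccr12a, cxcr3.2, cxcr3.3, il10rb, il12rb2, il21r.1, il2rga, il4r.1 and il6r, from 0.20 to 1.91. Those that fell besides il1rapl1b were ackr3b, ccr10, ccr7, il1rapl1a, il1rapl2, il22ra2, il2rb and il7r, from -1.32 to -0.22. With all 6 libraries in DESeq2, 9 genes (16.1%) rose, where 14.6% of all genes rose, and 9 (16.1%) fell, where 14.5% of all genes fell. The 9 that rose in DESeq2 were the ligand genes ccl34b.1 and cxcl18b and the receptor genes ccr12a, cxcr3.2, il10ra, il10rb, il12rb2, il2rga and il4r.1. The 9 that fell were the ligand genes ccl33.3, ccl44, cxcl12b, il12ba and il15 and the receptor genes il1rapl1b, il22ra2, il2rb and il7r. Leaving out any other single library left no gene, among these or among all genes, past the threshold in edgeR's quasi-likelihood test. In those fits 14 to 20 of these genes had an unadjusted p under 0.05, as did 1550 to 1672 rises and 1476 to 1792 falls among all genes. In DESeq2 4 to 6 of these genes passed higher and 3 to 5 lower, where 882 to 1075 and 786 to 932 of all genes did so.

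Of 14 genes with an adjusted p between 0.05 and 0.1 in edgeR, 8 had a log2 fold change above 0 and 6 below. The share of all genes in that range was not counted, and 38.2% of all genes tested had an unadjusted p under 0.05 in edgeR. Of the 80 matching symbols, 23 stayed under the threshold on reads, 15 of them without 10 reads in any library. The genes just inside it, with 10 reads in 3 libraries, were ccl38a.4 (5 to 13 reads), ccl39.1 (4 to 20 reads) and il20ra (3 to 33 reads). Just outside it, with 10 reads in 2 libraries, were ccl19b (4 to 15 reads), ccl27b (6 to 31 reads) and cxcl19 (3 to 17 reads). The gene il34, for a ligand of the microglial receptor Csf1r, had at most 2 reads in any library, and cxcl8b.3, of the neutrophil-attracting Cxcl8 type, had at most 12. The symbols cxcl8a, cxcr1 and cxcr2, and il1r symbols other than the il1rapl genes, were not among the 80 matching symbols in the count files. For il6, il12a, ccl34a.3, ccl34a.4 and ccl34b.9 the 10 reads were reached in all 3 injured libraries and in only 1 sham library, replicate 1, so their presence among the 57 depended mostly on the injured group. The level of ccl34b.9 was 0.741, 0.186 and 0.166 CPM in sham and 0.841, 0.892 and 1.00 CPM in injured libraries, a log2 fold change of 1.33 (SE 0.590, edgeR adjusted p = 0.152).

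Markers of leukocytes were read beside these genes. Of the 22 microglia and macrophage genes, 5 (22.7%) rose and 0 fell in edgeR's quasi-likelihood test, where 5.81% and 4.83% of all genes tested did so, with a median log2 fold change of 0.83 against -0.03 over all genes. Their summed level was 3914 to 6542 CPM in sham and 11256 to 12505 CPM in injured libraries, with sham replicate 1 the highest of its group, and the lipid carrier gene apoeb was the largest contributor in each injured library. Without apoeb the sums were 2473 to 3131 CPM in sham and 3771 to 4122 CPM in injured libraries, a smaller difference, still without overlap. The marker mpeg1.1 measured 139, 98.0 and 107 CPM in sham and 191, 189 and 180 CPM in injured libraries, and its log2 fold change was 0.71 (edgeR adjusted p = 0.0402). The neutrophil list summed to 413 to 1024 CPM in sham and 1106 to 1365 CPM in injured libraries, and none of its 13 tested genes passed. Without mmp9, a protease gene that other cells also express, the sums were 307 to 650 CPM in sham and 491 to 666 CPM in injured libraries and overlapped. The lysozyme gene lyz measured 71.8, 63.6 and 42.7 CPM in sham and 51.0, 24.0 and 28.7 CPM in injured libraries. The neutrophil marker mpx ranged from 16.2 to 34.1 CPM in sham and 26.9 to 33.9 CPM in injured libraries. The part of these cells in the levels of ccl34b.1, il10ra, il4r.1 and the other genes was not tested.

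The T and NK cell list summed to 139, 216 and 204 CPM in sham and 145, 147 and 139 CPM in injured libraries, and none of its 11 tested genes passed, 4 having a log2 fold change above 0 and 7 below. Most of that sum came from tox, which is also known from neurons. Without tox the sums were 51.2, 71.2 and 62.2 CPM in sham and 52.3, 57.0 and 52.7 CPM in injured libraries, which overlapped. Log2 fold changes of the T cell kinase genes itk and zap70 were -0.64 and 0.06, and the defining marker cd8a was at most 0.279 CPM in every library. The part of these cells in the levels of il7r, il2rb, il15 and ccr7 was not tested.

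Of 69 tested genes in the pathway lists, 7 (10.1%) rose and 2 (2.90%) fell in edgeR's quasi-likelihood test, where 5.81% and 4.83% of all genes tested did so. Not all of them act downstream of the receptors, since the adaptor list also holds caspase genes. In the JAK-STAT and SOCS list 2 of 27 genes (7.41%) rose, the kinase gene jak1 and the transcription factor gene stat3. The level of jak1 was 307, 202 and 212 CPM in sham and 388, 436 and 419 CPM in injured libraries, a log2 fold change of 0.79 (SE 0.177, edgeR adjusted p = 0.0463). For stat3 it was 188, 143 and 143 CPM in sham and 251, 267 and 266 CPM in injured libraries, a log2 fold change of 0.73 (SE 0.128, edgeR adjusted p = 0.0352). No sham library reached an injured library in either gene.

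In the list of IL-1 and IL-17 adaptors, which also holds the caspase genes caspa, caspb and casp8, 2 of 11 genes (18.2%) rose. They were the ubiquitin ligase gene traf6 (log2 fold change 0.64) and caspa (0.88), which is no adaptor gene. The kinase gene map3k7 fell (-0.36). In the chemokine receptor signaling list 3 of 31 genes (9.68%) rose, the lipid kinase gene pik3cg (log2 fold change 0.45), the GTPase gene rac1a (0.61) and the G protein regulator gene rgs18 (0.70). The arrestin gene arrb1, whose product turns off G protein-coupled receptors, fell from 23.3, 31.1 and 28.3 CPM in sham to 13.9, 14.7 and 17.6 CPM in injured libraries (log2 fold change -0.84, SE 0.150, edgeR adjusted p = 0.0360). The median log2 fold changes of the JAK-STAT, adaptor and chemokine signaling lists were 0.16, 0.36 and 0.18, against -0.03 over all genes tested.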

How the data were processed

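For each of the 6 libraries the authors deposited raw counts per gene symbol, made with TopHat2 (alignment of single-end reads to danRer10), SAMtools 1.3.1 (filter on mapping quality) and HTSeq 0.6.0 (counting). TopHat2 is 2.2.1 in the submitters' processing notes, which also name Trim Galore and DESeq2 1.26.0, and of another version in the methods. Neither the annotation nor the strand setting is stated in the sources used here. Antisense or overlapping genes therefore cannot be told apart, and tandem chemokine copies may be undercounted. Reads without a gene (41.2% to 51.3% per library) and other uncounted rows were left out.

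Genes were filtered with filterByExpr of edgeR 4.0.16 in R 4.3.3 (minimum count 10, minimum total 15), scaled by TMM and compared with the quasi-likelihood test, 3 injured against 3 sham libraries, 2-sided, with Benjamini-Hochberg adjustment over 12804 genes and a threshold of 0.05. Each standard error is the log2 fold change divided by the root of F. CPM used TMM-scaled library sizes, without length correction. Code was tested on simulated data in which 200 genes changed. No library pair agreed within sampling noise (chi-square per degree of freedom 11.8 to 167).

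Alternatives were RLE and upper-quartile scaling, TMM without genes of other tissues, DESeq2 1.42.0, limma-voom (limma 3.58.1) with sample weights, no filter, 10 counts in every library, a replicate block, and each library left out in edgeR and DESeq2. Named genes were those called in the 6 libraries, those called in DESeq2 or without sham replicate 1 with a log2 fold change of at least 1 in size, listed ligand and receptor pairs, the 3 genes of highest mean CPM and those at the read threshold, with further genes named after their values were seen. The genes and lists were chosen with earlier results of these data known. Gene order came from RefSeq GRCz12tu, in which 56 of 57 genes matched by symbol or synonym. Sequences were not used here.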

Additional observations from a re-analysis of the deposited data

How the results depend on the processing

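With all 6 libraries, 2 genes rose and 3 fell, and the counts moved with the tool and the libraries more than with the scaling. With RLE or upper-quartile scaling 1 gene rose (1 ligand and 0 receptors), with no filter on low counts 1 (0 receptors), and with 10 counts in every library 4 (3 receptors). Falls numbered 4 (3 ligands and 1 receptor) under both scalings and with 10 counts in every library, and 3 with no filter. Under both scalings and with no filter, il10ra was the gene lost, at adjusted p-values of 0.0502 to 0.0530 in edgeR. DESeq2 gave 9 higher (2 ligands, 7 receptors) and 9 lower (5 ligands, 4 receptors), 1894 and 1886 among all genes, and 21 and 9 among pathway genes. Limma-voom with sample weights gave 21 higher (10 ligands, 11 receptors) and 16 lower (7 ligands, 9 receptors), 3740 and 3805 among all genes, and 34 and 15 among pathway genes. The replicate block gave 0 higher and 0 lower for these genes, the pathway genes and all genes, with 20 of these genes and 2367 rises and 1955 falls among all genes at an unadjusted p under 0.05. Samples of the same number correlated at -0.04, 0.03 and 0.11 in their deviations, so they were not taken as pairs. With 1 library left out at a time in edgeR, counts ranged from 0 to 20 higher (ligands 0 to 10, receptors 0 to 10) and from 0 to 16 lower (ligands 0 to 7, receptors 0 to 9), from 0 to 3750 and 0 to 3647 among all genes, and from 0 to 34 and 0 to 15 among pathway genes. Every upper end came from leaving out sham replicate 1 and every 0 from another library. In DESeq2 the ranges were 4 to 21 higher (ligands 1 to 10, receptors 3 to 11) and 3 to 16 lower (ligands 2 to 7, receptors 1 to 9), 882 to 3642 and 786 to 3395 among all genes, and 7 to 32 and 2 to 16 among pathway genes, again with sham replicate 1 left out at the upper end. The cause of these differences was not tested. The 5 genes called with all libraries were also called in DESeq2 with all libraries and with any 1 left out, in limma-voom, and in edgeR without sham replicate 1, and none of them changed direction in any alternative. Depth limits il6, ccl34a.3 and ccl34a.4, which had at most 3 reads in sham replicates 2 and 3.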
